A study of Homo sapiens with 6 samples.

Results

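Aminoacyl-tRNA synthetases are the enzymes that attach each amino acid to its own tRNA, and so supply every charged tRNA that the ribosomes use. Human cells carry one set for the cytosol and another, encoded in the nucleus as well, for the ribosomes inside mitochondria. PUS1, the gene targeted in this study, encodes a pseudouridine synthase that modifies uridines in cytosolic and mitochondrial tRNAs, which are the substrates of these enzymes. Several cytosolic synthetases form the multi-synthetase complex, and many cytosolic synthetase genes are known targets of ATF4, the transcription factor that is made when the initiation factor eIF2 is phosphorylated under amino acid shortage or other stress.

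The genes were chosen by symbol alone, as an amino acid letter followed by ARS with or without a closing 1 or 2, together with EPRS1, FARSA, FARSB and TARS3. Of the 60605 genes in the deposited table, 35 chosen in this way are described, of which 20 were cytosolic and 15, with a symbol ending in 2, were mitochondrial. GARS1 and KARS1 make the glycyl and lysyl enzymes of both compartments from a single gene and were counted as cytosolic. All 35 carried a tRNA ligase term in the annotation of the deposited table, and all 15 mitochondrial genes carried a mitochondrial term. PARS2, the mitochondrial prolyl enzyme, lies outside the rule because its letter is not in it, and is given apart.

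The RNA came from MDA-MB-231 cells, a triple-negative human breast cancer line, that carried a stable lentiviral hairpin and were kept under puromycin. The shControl group had a control hairpin and the shPUS1 group a hairpin against PUS1, with 3 libraries of poly(A) RNA each. The titles call the libraries of each group biological replicates, and the column headers of the deposited table mark the shPUS1 libraries as knockdown 2. The sources used here do not say which designed hairpin that is or whether the replicates came from separate selections, so p-values measure the spread between these libraries, which may be technical. The comparison asks which mRNAs differ between the shPUS1 and the shControl libraries. No second hairpin against PUS1 is among them, so effects of PUS1 loss and other effects of this hairpin cannot be told apart. VIM, CD44 and AXL, which mark this mesenchymal-like line, were expressed in all 6 libraries. All 3 had lower values in every shPUS1 library than in any control, with log2 fold changes of -0.50, -0.29 and -0.60. None of these passed edgeR's test (adjusted p = 0.0873, 0.169 and 0.0623), DESeq2 called VIM and AXL, and the part of this in the results below was not tested. ESR1, PGR and CDH1 were at 1.09 CPM or less, EPCAM was between 5.45 and 7.81 CPM, and ERBB2 between 51.1 and 73.3 CPM. LIN28B, a marker of the packaging cells in which the virus was made, had no count in any library, and SALL4, another such marker, had 2 counts in shControl replicate 1 and 0 in the rest. PTPRC, a marker of leukocytes, had 2 counts in shControl replicates 1 and 3 each and 0 in the rest.

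The depth was 14241505 to 19625998 estimated counts per library, and the synthetases together took 0.392% to 0.474% of them. Levels are given in CPM, with each library total scaled by its TMM factor, and log2 fold changes give shPUS1 over shControl. PUS1 itself was at 14.5, 27.5 and 12.1 CPM in shControl replicates 1, 2 and 3, and at 6.57, 5.47 and 5.37 CPM in shPUS1. Its log2 fold change was -1.64 with a standard error of 0.32 (adjusted p = 0.0462, edgeR's quasi-likelihood test). The adjusted p rose to 0.0905 when shControl replicate 1 was left out, and to 0.208, 0.253 and 0.192 when shPUS1 replicate 1, 2 or 3 was.

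The library of shControl replicate 2 stood apart from the rest. Pearson's r of log2 CPM across genes, which are not independent replicates, was 0.9505 and 0.9521 between it and shControl replicates 1 and 3, where the latter pair reached 0.981 and the shPUS1 pairs 0.9872 to 0.9906. It was the highest of the 6 libraries for 9 of the 15 mitochondrial synthetases and for 5 of the 20 cytosolic ones, and the lowest for 1 and 6 of them. Over all genes tested it was the highest for 34.4% and the lowest for 32.0%. The results below are therefore given with and without it, and its part in the differences between the classes was not tested beyond that.

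All 35 synthetase genes passed the filter on low counts. None was past an adjusted p of 0.05 in edgeR's quasi-likelihood test with all 6 libraries, beside 2.58% of all 14748 genes tested (1.74% higher and 0.841% lower), of which 1.37% also had a log2 fold change of at least 1 in size. With an unadjusted p under 0.05 there were 11 synthetases, 6 higher and 5 lower, or 31.4% beside 25.5% of all genes. Without shControl replicate 2 the test called 7 of the 35, or 20.0%, beside 18.6% of all genes (9.8% higher and 8.79% lower), so the share was near the background. Of these calls 5 were higher (TARS1, MARS1, IARS1, CARS2 and LARS2) and 2 were lower (FARSB and HARS2). Voom with sample weights, which gives a deviating library less weight, called 11 of the 35 beside 21.0% of all genes, and DESeq2 called 2 (FARSB and TARS1) beside 12.4%. In bulk RNA, fewer cells that express a gene and less of its mRNA per cell cannot be told apart.

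Of the cytosolic genes, 11 had a log2 fold change above 0 and 9 below, with a median of 0.16. Of the mitochondrial genes, 4 lay above 0 and 11 below, with a median of -0.21. The median over all genes tested was -0.03, and 47.3% of them lay above 0. Without shControl replicate 2 the medians were 0.075 for cytosolic and -0.15 for mitochondrial genes, and again 4 mitochondrial genes lay above 0 and 11 below. The cytosolic median exceeded the mitochondrial one by 0.37 with all libraries and by 0.22 without that one, and this difference was not tested. The SD between libraries of a group was 0.0555 for the cytosolic median, 0.121 for the mitochondrial one and 0.133 for their difference. Summed over the class, the cytosolic genes took 3672, 3600 and 3272 CPM in shControl and 3946, 3818 and 4249 CPM in shPUS1, groups that did not overlap. Their means were 3514 and 4004 CPM, of which TARS1 alone made up 529.8 and 764 CPM. The mitochondrial sums were 584, 643 and 528 CPM in shControl and 541, 543 and 542 CPM in shPUS1, and these overlapped.

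**Figure D1:**
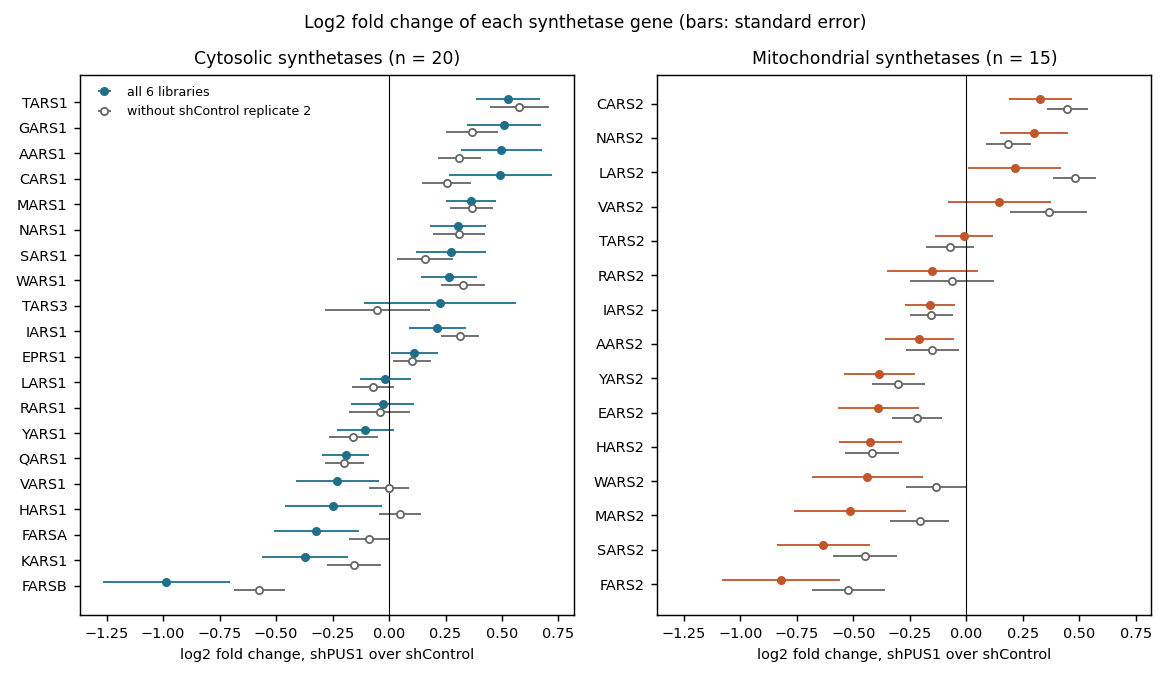
Log2 fold change (shPUS1 over shControl) of the 20 cytosolic and 15 mitochondrial synthetase genes, with filled points for all 6 libraries, open points without shControl replicate 2, and bars for the standard error. Cytosolic genes spread from -0.99 to 0.53 and mitochondrial genes from -0.82 to 0.33, and most of the low mitochondrial values lie nearer to 0 without that library.

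Values in every library follow for the 6 cytosolic genes with the smallest p, first TARS1 and FARSB, with positions as the deposited table gives them, whose build is not given in the sources used here. TARS1 (ENSG00000113407, chromosome 5, 33440696 to 33468091), the threonyl enzyme, was at 568, 571 and 451 CPM in shControl and 717, 723 and 851 CPM in shPUS1. It was higher in every shPUS1 library, by 0.53 on the log2 scale (SE 0.14, adjusted p = 0.0803), and by 0.58 when shControl replicate 2 was left out (adjusted p = 0.0193). FARSB (ENSG00000116120, chromosome 2, 222566899 to 222656092), the beta subunit of the cytosolic phenylalanyl enzyme, was at 52.2, 98.1 and 45.6 CPM in shControl and 36.3, 31.2 and 31.4 CPM in shPUS1. Every shPUS1 library was below every control, and replicate 2 lay far above the other controls. The log2 fold change was -0.99 (SE 0.28, adjusted p = 0.0914), and without that library -0.57, at an adjusted p of 0.0120.

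The others were MARS1, GARS1, AARS1 and NARS1, which all had higher values in every shPUS1 library than in any control. MARS1 (ENSG00000166986, chromosome 12, 57475445 to 57517569), the methionyl enzyme that also charges the initiator tRNA, was at 122, 118 and 109 CPM in shControl and 152, 146 and 152 CPM in shPUS1. Its log2 fold change was 0.36 (SE 0.11, adjusted p = 0.10), or 0.37 when shControl replicate 2 was left out (adjusted p = 0.0302). MARS1 shares 982 bases with DDIT3 and 13370 with ARHGAP9 on the other strand, and the strandedness of the counting is not given in the sources used here, so reads from these stretches cannot be told apart. GARS1 (ENSG00000106105, chromosome 7, 30580533 to 30634033) was at 228, 158 and 207 CPM in shControl and 273, 257 and 315 CPM in shPUS1, a difference of 0.51 on the log2 scale (SE 0.16, adjusted p = 0.114), and its locus overlaps GARS1-DT on the other strand over 14754 bases. AARS1 (ENSG00000090861, chromosome 16, 70251983 to 70289707), the alanyl enzyme, was at 212, 131 and 190.0 CPM in shControl and 251.5, 242 and 258 CPM in shPUS1, with a log2 fold change of 0.50 (SE 0.18, adjusted p = 0.142). For both, shControl replicate 2 was the lowest library, and without it the log2 fold changes were 0.37 and 0.31 (adjusted p = 0.0570 and 0.0518). NARS1 (ENSG00000134440, chromosome 18, 57600656 to 57622213), the asparaginyl enzyme, was at 116, 110.2 and 98.5 CPM in shControl and 124, 131 and 146 CPM in shPUS1, with a log2 fold change of 0.31 (SE 0.12, adjusted p = 0.178).

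Among the remaining 14 cytosolic genes, none passed edgeR's test with all 6 libraries. That none of them had an unadjusted p under 0.05 follows from setting apart the 6 genes with the smallest p. Over all 20 cytosolic genes, 5 were higher and 1 was lower at that level, where 25.5% of all genes tested were under it. DESeq2 called none of these 14, and voom called IARS1 and WARS1 as higher. CARS1, WARS1, IARS1 and EPRS1, for cysteine, tryptophan, isoleucine and both glutamate and proline, lay higher in every shPUS1 library than in any control, with log2 fold changes from 0.11 to 0.49. FARSA, the catalytic alpha subunit that pairs with FARSB, and QARS1, the glutaminyl enzyme, lay lower in every shPUS1 library, with log2 fold changes of -0.32 and -0.19. The groups overlapped for SARS1, TARS3, LARS1, RARS1, YARS1, VARS1, HARS1 and KARS1, with log2 fold changes from -0.37 for KARS1 to 0.27 for SARS1. HARS1 and VARS1 were highest in shControl replicate 2, and their log2 fold changes went from -0.25 and -0.23 to 0.048 and 0.00066 without it. IARS1, at 313, 386 and 315 CPM in shControl and 389, 401 and 387 CPM in shPUS1, passed the test only without that library, with a log2 fold change of 0.31 (adjusted p = 0.0335). In all, 9 cytosolic genes lay higher and 3 lower with no overlap between the groups, and of all genes tested 18.8% and 17.3% did (36.1% in either direction).

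**Figure D2:**
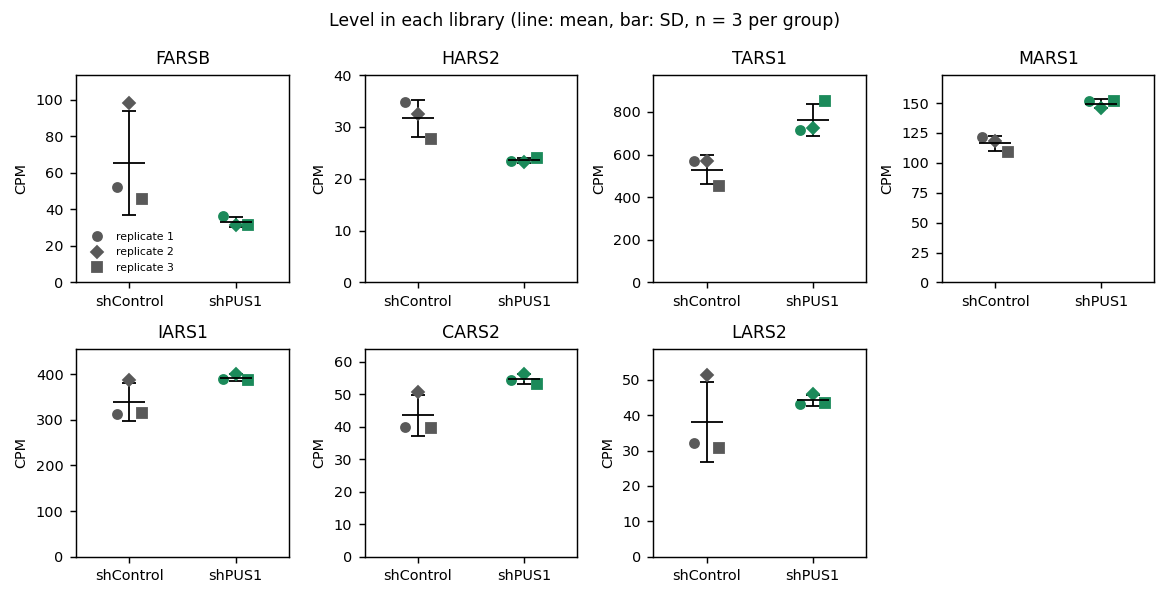
CPM of the 7 synthetases that the test called without shControl replicate 2, in each of the 3 shControl and 3 shPUS1 libraries, with a line for the mean, a bar for the SD and a separate marker for each replicate number. Replicate 2 lies far above the other controls for FARSB (98.1 CPM) and LARS2 (51.2 CPM), and within or near them for HARS2, TARS1 and MARS1.

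No mitochondrial gene passed edgeR's test with all 6 libraries. At an unadjusted p under 0.05, 1 was higher and 4 were lower, or 33.3% beside 25.5% of all genes. DESeq2 called none of the mitochondrial genes either, beside 12.4% of all genes, and voom with sample weights called 5, beside 21.0%. The smallest p belonged to FARS2 (ENSG00000145982, chromosome 6, 5261044 to 5829192), which charges mitochondrial phenylalanine tRNA, at 8.90, 15.4 and 9.27 CPM in shControl and 6.07, 5.80 and 7.20 CPM in shPUS1. Its log2 fold change was -0.82 (SE 0.26, adjusted p = 0.113), or -0.52 when shControl replicate 2 was left out (adjusted p = 0.0548). SARS2 (ENSG00000104835, chromosome 19, 38915266 to 38930763), the seryl enzyme, was at 14.0, 19.55 and 13.5 CPM in shControl and 9.57, 9.30 and 11.5 CPM in shPUS1, with a log2 fold change of -0.63 (SE 0.21, adjusted p = 0.117). Of its 100-base transcript stretches, 34.1% are also found in an annotated locus on the same strand, so its counts are uncertain. HARS2 (ENSG00000112855, chromosome 5, 140691430 to 140699305), the histidyl enzyme, was at 34.8, 32.4 and 27.7 CPM in shControl and 23.4, 23.2 and 24.0 CPM in shPUS1. It lay lower in every shPUS1 library with shControl replicate 2 between the other controls, and the log2 fold change was -0.43 (SE 0.14, adjusted p = 0.119), or -0.42 with that library left out (adjusted p = 0.0441). Its locus shares 626 bases with ZMAT2 on the same strand and 108 with HARS1 on the other, so its counts there are uncertain.

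YARS2 (ENSG00000139131, chromosome 12, 32727490 to 32755897), for tyrosine, was at 17.4, 20.7 and 17.2 CPM in shControl and 14.5, 13.02 and 14.9 CPM in shPUS1, with a log2 fold change of -0.38 (SE 0.16, adjusted p = 0.180). Its locus overlaps DNM1L on the other strand over 18161 bases. EARS2 (ENSG00000103356, chromosome 16, 23520754 to 23557731), for glutamate, was at 21.0, 28.99 and 20.6 CPM in shControl and 19.3, 16.9 and 17.8 CPM in shPUS1, with a log2 fold change of -0.39 (SE 0.18, adjusted p = 0.218), and its locus shares 1242 bases with GGA2 on the same strand. FARS2, SARS2, HARS2, YARS2 and EARS2 all had lower values in each shPUS1 library than in any control. CARS2 (ENSG00000134905, chromosome 13, 110641412 to 110713603), for cysteine, went the other way, at 39.9, 50.7 and 39.7 CPM in shControl and 54.5, 56.1 and 53.1 CPM in shPUS1. Its log2 fold change was 0.33 (SE 0.14, adjusted p = 0.191), or 0.45 when shControl replicate 2 was left out (adjusted p = 0.0140), and it shares 868 bases with ING1 on the other strand.

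Of the other 9 mitochondrial genes, NARS2 lay higher and AARS2 and IARS2 lay lower in every shPUS1 library, with log2 fold changes of 0.30, -0.21 and -0.16. LARS2, for leucine, was at 32.2, 51.2 and 30.9 CPM in shControl and 43.2, 46.1 and 43.4 CPM in shPUS1. Its shControl replicate 2 was the highest of all 6 libraries, and the log2 fold change went from 0.21 (adjusted p = 0.535) to 0.48 without it (adjusted p = 0.0121). The groups overlapped for MARS2, WARS2, RARS2, TARS2 and VARS2 as well, with log2 fold changes from -0.52 to 0.15. MARS2 and WARS2 were highest in shControl replicate 2, and their log2 fold changes of -0.52 and -0.44 were -0.21 and -0.13 without it. VARS2 shares 19.1% of its 100-base stretches with another annotated gene. In all, 2 mitochondrial genes lay higher and 7 lower with no overlap between the groups, beside 18.8% and 17.3% of all genes tested. PARS2 was at 13.4, 14.9 and 15.4 CPM in shControl and 14.4, 11.6 and 12.3 CPM in shPUS1, with overlapping groups and a log2 fold change of -0.19 (adjusted p = 0.482).

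Genes of both compartments were compared for 15 amino acids, which gave 16 pairs since FARSA and FARSB were each set beside FARS2. The cytosolic gene had the higher log2 fold change in 13 pairs, and in 12 without shControl replicate 2. Some gaps were small, at 0.0047 for asparagine and 0.12 for arginine, or 0.13 and 0.02 without that library. The log2 ratio of cytosolic to mitochondrial CPM lay higher in every shPUS1 library than in any control for 9 pairs. It lay lower for 1 pair, and the groups overlapped for the rest. Of single genes tested, 18.8% lay higher and 17.3% lower with no overlap. No such share was worked out for ratios of other gene pairs, so the counts of pairs have no background here. The phenylalanine pairs share FARS2, and pairs are not replicates. With all 6 libraries the largest distances were 0.91 for serine, 0.88 for methionine, 0.70 for alanine and 0.70 for tryptophan. Without that library the order changed, with 0.65 for threonine, 0.61 for serine, 0.57 for methionine and 0.47 for isoleucine the largest. For serine, the pair furthest apart, the log2 ratio of SARS1 to SARS2 was 4.68, 3.71 and 4.47 in shControl and 5.23, 5.17 and 5.16 in shPUS1. For threonine the log2 ratio of TARS1 to TARS2 was 3.44, 3.70 and 3.26 in shControl and 3.86, 4.05 and 4.11 in shPUS1. These are ratios of counts and not of amounts per length, so they compare libraries and not enzymes. The opposite order stood in 3 pairs, with log2 fold changes of -0.02 for LARS1 beside 0.21 for LARS2, of -0.23 for VARS1 beside 0.15 for VARS2, and of -0.99 for FARSB beside -0.82 for FARS2. The cysteine pair turned from 0.16 to -0.19 without shControl replicate 2.

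**Figure D3:**
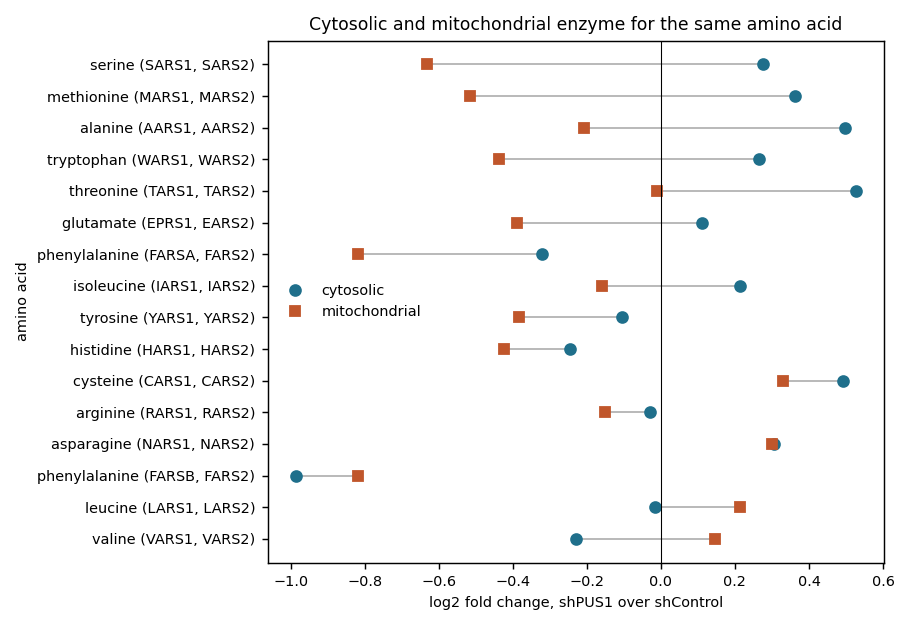
Log2 fold change (shPUS1 over shControl, all 6 libraries) of the cytosolic and the mitochondrial enzyme for the same amino acid, 1 line for each of the 16 pairs. The cytosolic point lies to the right in 13 pairs, with the widest gap, 0.91, for serine.

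The cytosolic genes were also divided by complex and by known response. The 7 catalytic genes of the multi-synthetase complex examined here had a median log2 fold change of -0.02, with MARS1 (0.36) and KARS1 (-0.37) at the ends. None passed edgeR's test or DESeq2, 1 (14.3%) had an unadjusted p under 0.05 beside 25.5% of all genes, and voom called 2 beside 21.0%. The complex's auxiliary proteins AIMP1, AIMP2 and EEF1E1 were at -0.48, -0.99 and -0.15 on the log2 scale (adjusted p = 0.0967, 0.145 and 0.637), of which DESeq2 called AIMP2. AIMP1 was at 78.1, 84.9 and 65.3 CPM in shControl and 53.2, 51.5 and 59.3 CPM in shPUS1, and it passed the test as lower without shControl replicate 2 (log2 fold change -0.40, adjusted p = 0.0463). The 12 cytosolic genes listed from general knowledge as induced by ATF4 had a median of 0.29, with 10 above 0 and 9 higher without overlap, as were 18.8% of all genes. None passed edgeR's test, 5 had an unadjusted p under 0.05 (25.5% of all genes), DESeq2 called 1 (TARS1, beside 12.4%) and voom 5 (beside 21.0%). They were AARS1, CARS1, EPRS1, GARS1, IARS1, LARS1, MARS1, NARS1, SARS1, TARS1, WARS1 and YARS1. The other 8 cytosolic genes had a median of -0.24, with 1 above 0 and 3 lower without overlap, as were 17.3% of all genes. Without shControl replicate 2 these medians were 0.31 and -0.07. The test then called 3 of the 12 as higher and 1 of the 8 as lower, beside 9.8% and 8.79% of all genes.

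Promoter windows of 250 bases before to 50 after each RefSeq start (GRCh38.p14) were given for 29 of the 35 genes, and not for AARS2, LARS1, TARS3, VARS1, VARS2 and YARS1. They were searched on both strands for TGATGNAA, the core of the element that ATF4 binds together with a C/EBP partner. It was found in 7 of 16 cytosolic windows (43.8%) and in 1 of 13 mitochondrial windows, that of YARS2. Of all 27305 genes with a window 4.46% held it, and of the genes tested 2.67%. All 7 cytosolic genes were among the 10 ATF4-induced enzymes with a window, and none of the 6 other cytosolic genes with one held the motif. The matches are printed here because all 7 cytosolic genes that hold one had log2 fold changes above 0, with 11 bases on the left, on the gene's strand from 5′ to 3′, and with the motif, or its reverse complement, in capitals.
AARS1, chr16:70289675-70289704, minus strand: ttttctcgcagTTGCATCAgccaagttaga
CARS1, chr11:3057407-3057436, minus strand: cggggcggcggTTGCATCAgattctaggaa
GARS1, chr7:30594834-30594863, plus strand: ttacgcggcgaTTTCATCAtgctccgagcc
IARS1, chr9:92293692-92293721, minus strand: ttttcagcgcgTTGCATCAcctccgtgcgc
MARS1, chr12:57488053-57488082, plus strand: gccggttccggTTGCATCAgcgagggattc
NARS1, chr18:57621804-57621833, minus strand: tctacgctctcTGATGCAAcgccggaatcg
TARS1, chr5:33440956-33440985, plus strand: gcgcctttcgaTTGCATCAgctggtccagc
YARS2, chr12:32756076-32756105, minus strand: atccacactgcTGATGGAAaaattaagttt

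In 6 of the 7 cytosolic genes the match was the same core, TGATGCAA or its reverse complement TTGCATCA. That core, looked at after the matches were seen, was found for 20.7% of the synthetases with a window and for 1.08% of all genes with one. Apart from AARS1, with its match at position -187 from the start, the cytosolic matches began between -33 and 15. The 7 genes had log2 fold changes from 0.21 (IARS1) to 0.53 (TARS1), with a median of 0.49. All 7 lay higher in every shPUS1 library than in any control, as did 18.8% of all genes tested. They are part of the ATF4-induced genes counted above, so their counts are not independent of those. CARS1 was at 184, 95.9 and 159 CPM in shControl and 209, 189 and 219 CPM in shPUS1. None of the 7 passed the test with all 6 libraries, 5 had an unadjusted p under 0.05, DESeq2 called 1 and voom 4, where 25.5%, 12.4% and 21.0% of all genes did. Without shControl replicate 2, which was the lowest library for 3 of them, the median was 0.31, all 7 still lay above 0, and IARS1, MARS1 and TARS1 passed the test, which called 18.6% of all genes. The 9 cytosolic genes with a window and no match had a median of -0.19, with 3 above 0. YARS2, the mitochondrial gene with a match, was at -0.38. In the list of other ATF4 response genes, 4 of the 16 with a window held the motif, namely ATF3 (1.19), CHAC1 (0.88), ASNS (0.11) and SLC3A2 (-0.17, log2 fold changes), and the groups overlapped for ASNS and SLC3A2. A match is a description of these letters and not evidence of binding.

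**Figure D4:**
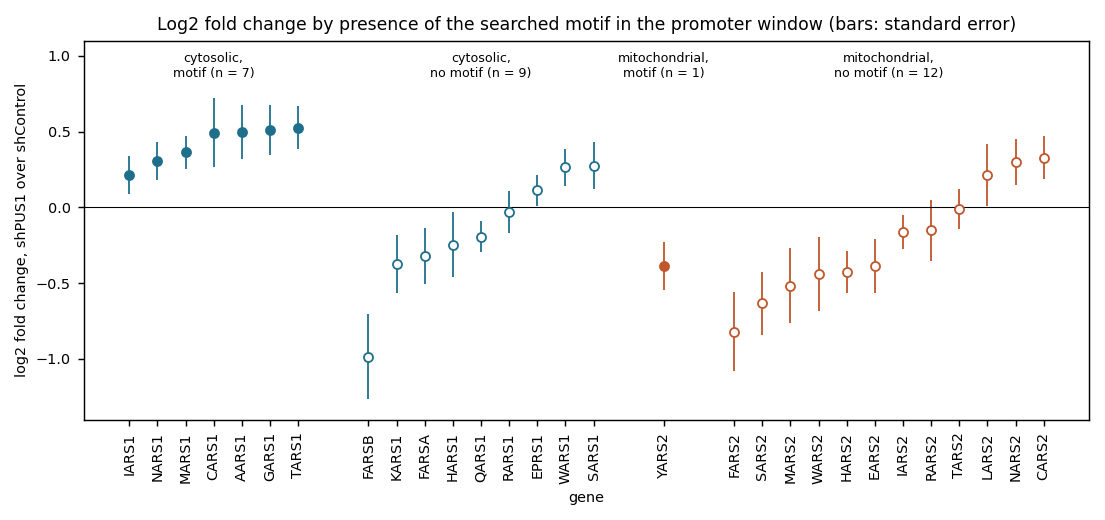
Log2 fold change (shPUS1 over shControl, bars for the standard error) of the 29 synthetase genes with a promoter window, grouped by compartment and by presence of the searched motif on either strand. The 7 cytosolic genes with the motif lie between 0.21 and 0.53, and the 9 without it between -0.99 and 0.27.

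Other genes of the ATF4 response were read from a list of 20. Their median log2 fold change was 0.38, with 14 above 0, and shControl replicate 2 was the lowest library for 14 of them. None passed edgeR's test with all libraries, 5 had an unadjusted p under 0.05 and a higher value and 1 a lower one, and DESeq2 called 3 higher and 1 lower. These 6 of 20 stand beside 25.5% of all genes at an unadjusted p under 0.05, near the background, and the 4 by DESeq2 beside 12.4%. ATF4 mRNA was at 363, 209.9 and 304 CPM in shControl and 378, 341 and 451 CPM in shPUS1, with overlapping groups (log2 fold change 0.42, adjusted p = 0.252). Without shControl replicate 2 the median was 0.11, and 4 genes passed as higher (ATF3, TRIB3, SLC7A11 and PPP1R15A) and 2 as lower (DDIT4 and VLDLR). Of all genes, 9.8% passed as higher and 8.79% as lower in that setting. The gene that DESeq2 called lower was DDIT4 (adjusted p = 1.7e-05). DDIT4 was at 292, 85.7 and 264 CPM in shControl and 59.4, 58.3 and 52.2 CPM in shPUS1. Its log2 fold change was -1.92 with all libraries (adjusted p = 0.0521, edgeR's test) and -2.30 without shControl replicate 2. ASNS, the asparagine synthetase, was at 56.1, 20.2 and 42.4 CPM in shControl and 42.2, 34.9 and 51.2 CPM in shPUS1, so its groups overlapped. The kinases that phosphorylate eIF2 were all above 0, from 0.16 for EIF2AK2 to 1.17 for EIF2AK3, the kinase PERK of the endoplasmic reticulum. EIF2AK1 and EIF2AK2 had an adjusted p of 0.442 and 0.522 in edgeR's test, and the groups overlapped for EIF2AK2. For EIF2AK3, shControl replicate 2 was the lowest library, at 34.1 CPM beside 81.9 and 83.7 CPM in the other controls. Without it the log2 fold change of EIF2AK3 was 0.84. EIF2AK4, the kinase GCN2 that senses uncharged tRNA, was at 110.0, 125 and 119 CPM in shControl and 168, 156 and 151 CPM in shPUS1. Its log2 fold change was 0.42 (adjusted p = 0.0837). DESeq2 called EIF2AK3 and EIF2AK4 with all 6 libraries (adjusted p = 0.00315 and 0.0324), beside 12.4% of all genes. Without shControl replicate 2, edgeR's test called both (adjusted p = 0.00113 and 0.0141), beside 18.6% of all genes.

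Levels were compared between genes per kilobase. By the deposited FPKM, the count per kilobase of exonic length scaled to the library total, the shControl means of cytosolic genes ran from 0.873 for TARS3 to 125 for TARS1, with a median of 17.1. Those of mitochondrial genes ran from 2.31 for FARS2 to 57.9 for IARS2, with a median of 5.11. The exonic length listed in the table was 0.987 to 6.59 times the length of the longest principal transcript of GENCODE release 29, with the largest ratios for GARS1, HARS1 and CARS2. FARSB, with 1 transcript of 3369 bases in that release, was listed at 6761 bases. TARS1 was listed at 4257 bases, below its principal transcript of 4314. The ratio thus also holds differences between that release and the annotation of the table. By principal transcript the medians were 48.6 for cytosolic and 8.04 for mitochondrial genes, and SARS1 (166 ± 31.3, SD, n = 3) and TARS1 (124 ± 13.9, SD, n = 3) were the highest, with overlapping ranges of mean and SD. The order within a pair depended on this choice: the ratio of HARS1 to HARS2 in shControl was 0.812 by FPKM and 3.18 by principal transcript, and that of IARS1 to IARS2 was 0.262 and 1.09. TARS3, a threonyl enzyme related to TARS1, was the lowest under both lengths, on 44 to 90 counts per library.

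**Figure D5:**
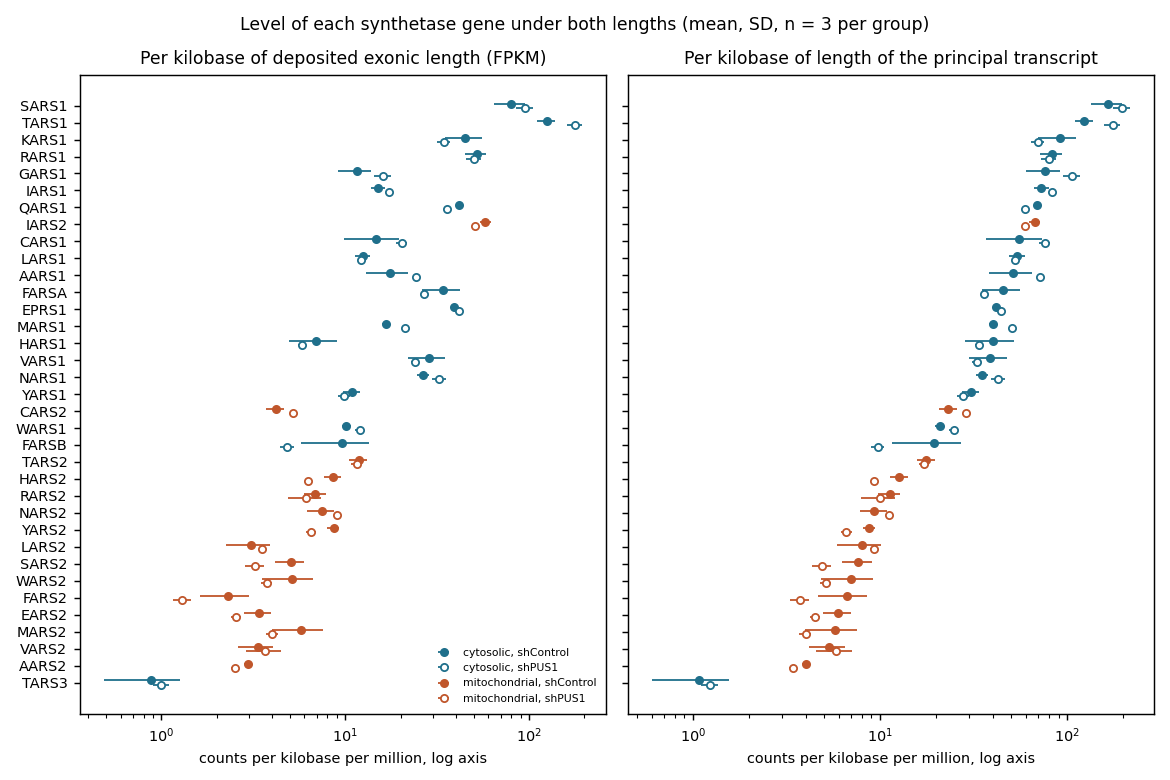
Mean level of each of the 35 synthetase genes in shControl (filled) and shPUS1 (open), in FPKM units on a log axis, by the deposited exonic length (left) and by the principal transcript (right), with bars for the SD of 3 libraries. Cytosolic genes other than TARS3 lie mostly above the mitochondrial genes, and IARS2, at 57.9 by the deposited length, lies among the cytosolic ones.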

How the data were processed

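The authors made poly(A) libraries, sequenced them as paired ends, aligned the reads with Hisat2 and counted them with HTSeq 0.6.1. What they deposited for each gene are estimated counts, without normalization, of which 29.8% to 31.8% of those above 0 were not whole, and FPKM, made by the authors from these counts, the listed exonic length and the library total. Genome build, annotation release, strandedness and treatment of multiply mapped reads are not given in the sources used here. Nor is it given how counts that are not whole arose from the counting described. Gene positions are those of the deposited table, and annotated transcripts are from GENCODE release 29.

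Rounded counts of genes that passed filterByExpr were scaled by TMM factors. All 6 libraries entered one quasi-likelihood fit (edgeR 4.0.16, R 4.3.3) with group as the only term. P-values were adjusted by the Benjamini-Hochberg method over 14748 genes, and a call is an adjusted p under 0.05. The biological coefficient of variation was 0.22. On simulated data with this spread, over 14748 genes, 131 of 200 genes given a log2 change of 1 were called, beside 8 false calls, and 199 of 200 given a log2 change of 2, beside 9 false calls. The changed genes were drawn above a floor of mean counts, and no change below 1 was simulated. All simulated libraries had the same spread, so none deviated as shControl replicate 2 did, and recovery in these data may differ. DESeq2 1.42.0 and limma 3.58.1 (on log2 of FPKM with a pseudocount of 1 or 0.1, where the mean FPKM reached 1) gave alternatives, as did other scalings, no filter, a replicate block and each library left out. Voom with sample weights, principal transcript lengths, and GARS1 and KARS1 left out were chosen after seeing the data. Same-numbered libraries had residual correlations of -0.05, -0.03 and -0.19, which show no sign of pairing by number. Residuals from group means of 3 libraries, with shControl replicate 2 deviating, cannot exclude such a pairing. Figures were drawn with matplotlib 3.10.9.

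The genes, lists and tests were chosen with earlier results of these data known. The rule finds 37 genes, of which 2 are not reported here, nor is 1 gene of a related list, and counts, medians and sums leave them out while the fit keeps every gene. Values in every library are given for PUS1, PARS2, called genes and, in each class, the genes with the smallest p up to 6. They are also given for some others chosen after their values were seen. These others are IARS1, CARS1, LARS2, AIMP1, ATF4, ASNS, DDIT4, EIF2AK4 and XPOT. Counts limit the precision through counting error only.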

Additional observations from a re-analysis of the deposited data

How the results depend on the processing

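Calls depended on single libraries. Leaving out each library in turn gave 0 to 3 cytosolic genes called higher and 0 to 1 lower, and 0 to 2 mitochondrial genes higher and 0 to 1 lower, with the highest counts all without shControl replicate 2. Voom with sample weights, where that library had a weight of 0.101, called 5 cytosolic genes higher and 1 lower, and 2 mitochondrial genes higher and 3 lower, which included all 7 called without that library. DESeq2 called 1 cytosolic gene higher (TARS1) and 1 lower (FARSB). No filter on low counts called 1 lower (FARSB). An unadjusted p under 0.05 gave 5 cytosolic genes higher and 1 lower, and 1 mitochondrial gene higher and 4 lower. Over all genes tested, 380 were called with all 6 libraries, 2813 without shControl replicate 2, 3090 by voom and 1712 by DESeq2.

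The log2 fold change of PUS1 ran from -1.86 to -1.20 with libraries left out, and was -1.48 and -1.001 by limma on log2 FPKM with a pseudocount of 0.1 and 1, where the call was lost (adjusted p = 0.0514 and 0.0544). With the replicate number as a block, though a pairing by number was neither seen nor excluded, 0 synthetases were called and PUS1 was at -1.55 (adjusted p = 0.0969).

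The cytosolic median ran from 0.075 to 0.17 and the mitochondrial from -0.33 to -0.15 with libraries left out, and their difference from 0.22 to 0.48, beside 0.37 with all. The cytosolic median was 0.067 by voom, and 0.089 and 0.087 by limma with a pseudocount of 0.1 and 1. No alternative changed the sign of any of these. With a library left out, 7 genes changed sign. HARS1 ran from -0.38 to 0.048 (0.011 by voom), LARS1 from -0.070 to 0.043, RARS1 from -0.12 to 0.069, TARS2 from -0.073 to 0.060, TARS3 from -0.051 to 0.59, VARS1 from -0.34 to 0.00066 and VARS2 from -0.041 to 0.36. The cause of these changes was not tested.

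In the related lists, leaving out libraries gave 0 to 1 auxiliary protein of the complex lower, 0 to 4 ATF4 response genes higher and 0 to 2 lower, and 0 to 2 eIF2 kinases higher. Voom gave 1 auxiliary protein lower, 4 ATF4 response genes higher and 1 lower, 2 eIF2 kinases higher, and 1 gene of other charging and quality control lower. At this depth and spread, changes below 1 on the log2 scale were often not detectable.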

Other observations

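Genes that handle tRNA before and beside charging were not called with all 6 libraries by edgeR's quasi-likelihood test or by DESeq2. Voom with sample weights called 1 of them, DTD1, beside 21.0% of all genes. Of 12 genes for other charging steps and quality control, 3 lay above 0 and 9 below, with a median log2 fold change of -0.20. In edgeR's test 2 of them (16.7%) had an unadjusted p under 0.05, below the 25.5% of all genes tested. These were DTD1, a D-tyrosyl-tRNA deacylase, at -0.67, and GATB, a subunit of the mitochondrial glutaminyl-tRNA amidotransferase, at -0.48. Of 13 genes for tRNA maturation and export, 12 passed the filter on low counts, with a median of -0.18. Of these, 2 (16.7%) had an unadjusted p under 0.05, again below the 25.5% of all genes tested. They were XPOT, the tRNA exporter, at 0.27, and TRNT1, which adds the CCA end, at -0.50. The groups overlapped for TRNT1. XPOT was at 248, 236 and 253 CPM in shControl and 298, 287 and 301 CPM in shPUS1, groups that did not overlap.

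By structural family, the 18 class I synthetases had a median log2 fold change of -0.07 and the 16 class II synthetases of -0.11, with EPRS1, which holds both kinds of domain, left out.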
